A study of Arabidopsis thaliana with 8 samples.

Results

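The 8 genes described here encode the 5 ethylene receptors of Arabidopsis thaliana, ETR1 (AT1G66340), ERS1 (AT2G40940), ETR2 (AT3G23150), ERS2 (AT1G04310) and EIN4 (AT3G04580), with EBF1 (AT2G25490), EBF2 (AT5G25350) and EIN3 (AT3G20770). They were chosen by locus from the 27416 gene models of the series, all 8 had a model in every file, and all 8 passed the filter on low values, as did 20044 models in all. RNA came from whole seedlings of the Col-0 accession, 4.5 days old, grown on medium with 1% sucrose after 3 days in the cold and 12 h of white light. They then spent 4 days either without light or under blue light at 15 µmol per m2 per s. Each of 4 groups had 2 libraries: dark-grown wild type, wild type from blue light, seedlings from blue light labelled as mutant in the cryptochrome genes CRY1 and CRY2 (cry1 cry2), and dark-grown seedlings labelled as mutant in the auxin receptor genes TIR1, AFB1, AFB2 and AFB3 (here the auxin receptor mutant). Cryptochromes are photoreceptors for blue light, and these auxin receptors are F-box proteins. No group combined a mutant with its other light condition, and the alleles were not given.

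Ethylene is a gaseous hormone that in darkness keeps the apical hook closed and restrains hypocotyl elongation. Its receptors sit in the endoplasmic reticulum membrane and signal in its absence: they keep the kinase CTR1 active, which holds back EIN2. When ethylene binds, EIN2 is released and the transcription factor EIN3 accumulates, while the F-box proteins EBF1 and EBF2 otherwise mark EIN3 for degradation. In Arabidopsis, ETR2, ERS1, ERS2 and EBF2 are known as genes whose transcripts rise with ethylene, so that the pathway restrains itself, whereas ETR1 and EIN4 are known as little affected.

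The deposited values were RPKM, reads per kilobase of gene model scaled to library size. The steps between values allowed the whole reads behind them to be recovered, 19.3 M to 23.1 M per library and 126 to 8144 per member and library, so that counting alone gave an error of 1.11% to 8.91%. Changes are log2 fold changes of RPKM + 1 with their standard error (SE), from a limma fit of the 8 libraries, and rose or fell means a Benjamini-Hochberg adjusted p under 0.05 over the 20044 models. In the labelled mutants CRY2 had 0.0777% and CRY1 72.2% of the wild-type RPKM, and AFB2 had 1.55%, AFB1 3.16%, AFB3 50.3% and TIR1 77.1%, so that transcripts of CRY1, TIR1 and AFB3 were still present. The summed RPKM of 6 genes of green tissue was 6833 to 7202 in the dark wild type, 31325 to 31900 in blue light, 7835 to 9321 in cry1 cry2 and 22469 to 24183 in the auxin receptor mutant. The summed RPKM of 15 root markers was 569 to 588, 226 to 246, 518 to 568 and 164 to 166 in the same order. That sum was carried by the endodermal CASP1 to CASP5, and the list did not move as one. In blue light 7 of its 13 tested genes fell (CASP1 to CASP5, MYB36 and WOX5), 5 root hair genes (EXPA7, EXPA18, COBL9, PRP3 and LRX1) rose and SCR did not pass. In cry1 cry2 6 rose and 5 fell, with a median of -0.05, the root hair genes being those that fell. In the auxin receptor mutant 11 fell and 0 rose, with a median of -1.71. After scaling the libraries by median ratios 11 fell and 1 rose there, with a median of -1.41. Of all tested genes 40.4% fell and 34% rose in blue light, and 26.3% fell and 41.6% rose in cry1 cry2. In the auxin receptor mutant 51.4% of them fell and 27.5% rose, with a median of -0.24. None of these root markers stood at 0 in a whole group. The green tissue genes did not move as one either. All 6 rose in blue light and in the auxin receptor mutant. In cry1 cry2 5 fell and 1 rose against the wild type in blue light (LHCB6, from 300 and 290 to 471 and 505 RPKM). Against the dark wild type 4 rose in cry1 cry2 and 2 fell, RBCS1A and RBCS1B. Of all tested genes 25.1% rose and 16.5% fell in that comparison. The part that organ proportions had in the results below was not tested, and in whole seedlings fewer cells of a type and less RNA per cell cannot be told apart.

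In the RefSeq annotation of assembly TAIR10.1 the receptor genes lay at chr1:24734162-24737756 (ETR1, plus strand), chr2:17084321-17087326 (ERS1, minus strand), chr3:8254559-8257888 (ETR2, plus strand), chr1:1154740-1157813 (ERS2, minus strand) and chr3:1235209-1238630 (EIN4, minus strand). EBF1 lay at chr2:10847375-10850797, EBF2 at chr5:8794252-8797349 and EIN3 at chr3:7260429-7263384, all on the minus strand. ERS1 and ERS2 lack the receiver domain that ends the other receptors, and their coding sequences of 1842 and 1938 bases were shorter than those of ETR1 (2217), EIN4 (2301) and ETR2 (2322). ETR1 and ERS1 form subfamily I and the other 3 receptors subfamily II. Coding identity was 69.2% between ETR1 and ERS1, 63.8% to 67.2% within subfamily II and 58.7% to 60.7% between the subfamilies. EBF1 and EBF2 shared 66.3%. No 50-base stretch of a receptor, EBF1 or EBF2 transcript recurred in another member. EIN3 shared 19 of 2399 such stretches with its close relative EIL1.

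The 250 bases before the annotated start are shown for 5 genes, since 4 of them fell most in blue light and EIN4 did not pass any test. Capitals mark matches, on either strand, to ATGNANCT, a pattern that takes in the binding sequence of EIN3-type factors. The windows are chr2:17087327-17087576 for ERS1, chr3:8254309-8254558 for ETR2, chr1:1157814-1158063 for ERS2, chr5:8797350-8797599 for EBF2 and chr3:1238631-1238880 for EIN4, each written 5′ to 3′ on the strand of its gene (RefSeq TAIR10.1).
ERS1: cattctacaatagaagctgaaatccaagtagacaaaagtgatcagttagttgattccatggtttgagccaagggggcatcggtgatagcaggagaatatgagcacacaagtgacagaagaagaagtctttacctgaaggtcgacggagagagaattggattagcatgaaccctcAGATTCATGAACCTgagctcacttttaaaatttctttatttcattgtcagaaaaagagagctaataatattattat
ETR2: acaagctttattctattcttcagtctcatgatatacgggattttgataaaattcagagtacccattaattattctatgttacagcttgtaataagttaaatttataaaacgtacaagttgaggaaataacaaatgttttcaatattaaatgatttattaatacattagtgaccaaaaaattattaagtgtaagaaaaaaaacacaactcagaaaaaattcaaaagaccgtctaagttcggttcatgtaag
ERS2: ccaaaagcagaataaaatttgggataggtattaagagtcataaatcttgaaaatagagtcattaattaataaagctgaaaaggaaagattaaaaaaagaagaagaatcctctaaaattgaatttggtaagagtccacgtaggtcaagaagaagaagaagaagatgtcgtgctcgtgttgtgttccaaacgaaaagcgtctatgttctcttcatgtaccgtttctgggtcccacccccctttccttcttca
EBF2: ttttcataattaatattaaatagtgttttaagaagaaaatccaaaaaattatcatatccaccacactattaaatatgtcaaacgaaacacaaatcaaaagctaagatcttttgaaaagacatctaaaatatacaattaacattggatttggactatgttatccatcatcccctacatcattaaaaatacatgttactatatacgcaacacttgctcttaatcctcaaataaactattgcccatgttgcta
EIN4: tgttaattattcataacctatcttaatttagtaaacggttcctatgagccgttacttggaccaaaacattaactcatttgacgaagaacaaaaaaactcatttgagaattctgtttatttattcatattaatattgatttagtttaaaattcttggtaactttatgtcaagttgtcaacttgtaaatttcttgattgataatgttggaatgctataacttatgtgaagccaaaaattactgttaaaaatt
ERS1 held 2 matches that overlap by 2 bases, AGATTCAT on the reverse strand and ATGAACCT on the forward strand, 76 to 63 bases before the start. It was the only 1 of the 8 genes with a match in this window, where 12.5% of 27443 promoters had one. CACGTG, the G-box bound by PIF and HY5 factors of light signalling, was in 0 of the 8 windows and in 6.49% of promoters. TGTCTC, an auxin response element, was in 0 of the 8 and in 10.9% of promoters. Longer upstream stretches were not searched.

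In the wild type, the receptor transcripts together stood at 128 and 129 RPKM in the 2 dark libraries and at 46.8 and 46.0 RPKM in the 2 blue-light libraries. The cry1 cry2 libraries in blue light had 102 and 98.5 RPKM, and the dark libraries of the auxin receptor mutant had 65.7 and 60.6 RPKM. The 4 groups did not overlap, with the dark wild type highest and the wild type in blue light lowest. ERS1 was the most abundant receptor transcript in all 8 libraries, and the share of each receptor differed between groups.

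**Figure D1:**
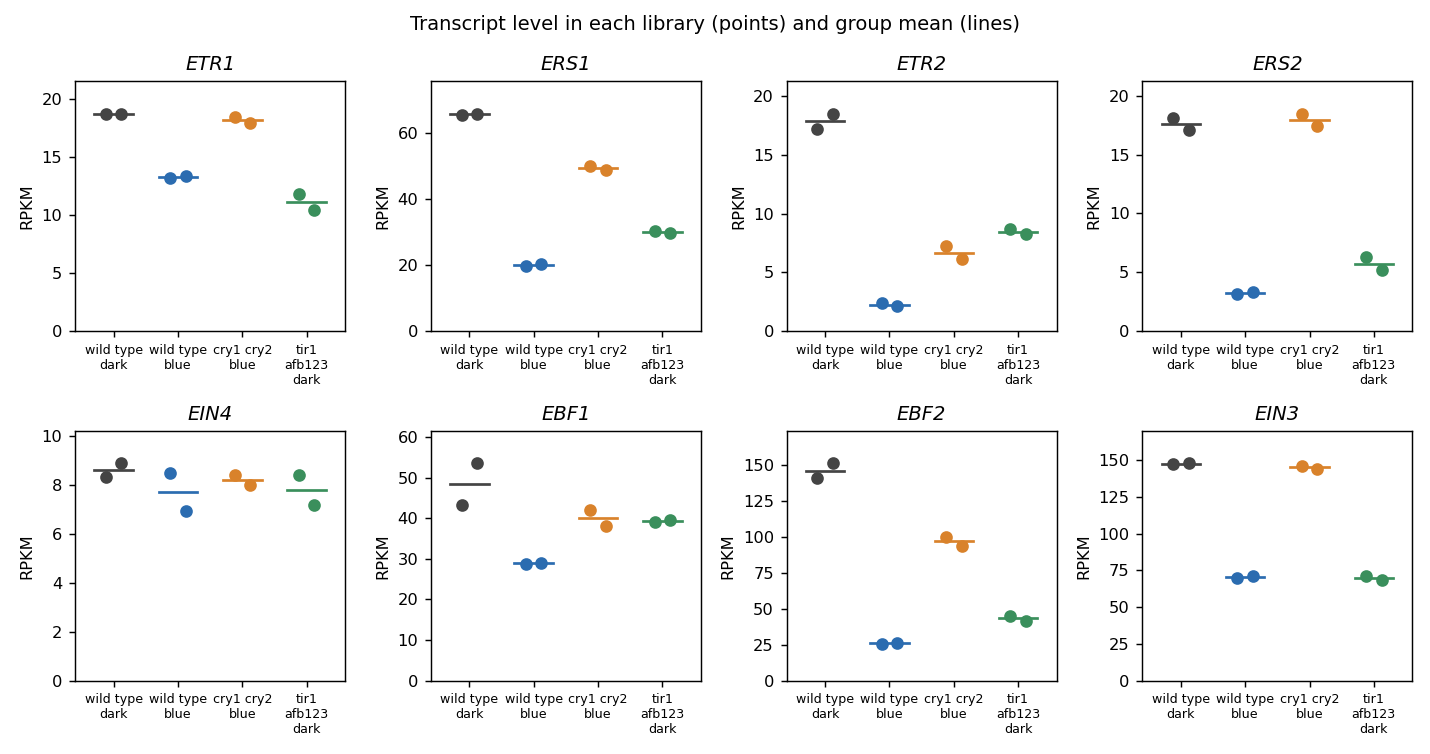
RPKM of the 8 genes in each library (points) with the group mean (line), for the wild type in darkness and blue light, cry1 cry2 in blue light and tir1 afb1 afb2 afb3 in darkness; each panel has its own axis from 0. The dark wild type is at or near the top for 7 genes, and EIN4 stays between 6.93 and 8.89 RPKM in all 8 libraries.

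Blue light was set against darkness in the wild type first. Of the 8 genes, 7 fell and EIN4 did not pass, where 74.4% of all tested genes were called, 40.4% fallen and 34% risen. Of the 8, 5 fell by at least 1 on the log2 scale, where 9.42% of tested genes did. The median of the 8 changes was -1.36, against -0.06 over all tested genes. ETR2, ERS2 and EBF2 had the largest falls, and ETR1 and EBF1 the smallest among those that passed.

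ERS1, the ethylene-induced member of subfamily I, stood at 65.5 and 65.9 RPKM in darkness and at 19.7 and 20.3 RPKM in blue light. All dark values were above all blue-light values, and the level in blue light was 30.5% of that in darkness (-1.67, SE 0.05, limma adjusted p = 1.40e-10). ETR2, a subfamily II receptor with a receiver domain, stood at 17.2 and 18.5 RPKM in darkness and at 2.35 and 2.10 RPKM in blue light. That is 12.4% of the dark level, the lowest share among the 8 genes (-2.55, SE 0.09, adjusted p = 5.46e-10 in limma). ERS2, the subfamily II receptor without that domain, stood at 18.1 and 17.1 RPKM in darkness and at 3.15 and 3.27 RPKM in blue light, 18.2% of the dark level (-2.14, SE 0.09, limma adjusted p = 1.53e-09). So the 3 receptors known as ethylene-induced each fell by at least 3.28-fold.

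ETR1, the first ethylene receptor gene to be identified, stood at 18.7 RPKM in both dark libraries and at 13.2 and 13.3 RPKM in blue light. Its fall was small beside those of the other 3 (-0.47, SE 0.07, limma adjusted p = 0.000112), although the groups did not overlap. EIN4 had 8.34 and 8.89 RPKM in darkness and 8.48 and 6.93 RPKM in blue light, and these values overlapped. Its change of -0.15 (SE 0.10, limma adjusted p = 0.218) had a 95% interval of -0.38 to 0.08.

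EBF2, the F-box gene that responds strongly to ethylene, stood at 141 and 151 RPKM in darkness and at 25.5 and 26.4 RPKM in blue light, a 5.61-fold lower level (-2.44, SE 0.06, limma adjusted p = 2.40e-11). EBF1, which acts beside it on EIN3, stood at 43.2 and 53.5 RPKM in darkness and at 28.7 and 29.0 RPKM in blue light (-0.72, SE 0.09, limma adjusted p = 1.53e-05). The 2 dark libraries of EBF1 lay farther apart than those of any other group of this gene. EIN3 stood at 147 and 148 RPKM in darkness and at 69.8 and 71.3 RPKM in blue light, 47.9% of the dark level (-1.05, SE 0.05, limma adjusted p = 3.45e-09). The transcript of EIN3 thus fell together with those of the F-box proteins that target it, and what its protein did was not measured.

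The second comparison asked how cry1 cry2 differed from the wild type under blue light. Of the 8 genes, 7 rose and EIN4 did not pass, where 67.9% of tested genes were called, 41.6% risen and 26.3% fallen. Of the 8, 5 rose by at least 1 on the log2 scale, where 6.95% of tested genes did. The median change was 1.14, against 0.12 over all tested genes. Median-ratio scaling moved the latter to 0.02, with 6581 genes risen and 6406 fallen in place of 8337 and 5265, and the same 7 members rose, by 0.31 (ETR1) to 2.05 (ERS2). This comparison and that of blue light in the wild type share the 2 blue-light wild-type libraries, so opposite signs in them are not independent.

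ERS2 had the largest rise of the 8, to 18.5 and 17.5 RPKM in cry1 cry2, 5.59 times the level in the wild type in blue light (2.17, SE 0.09, limma adjusted p = 2.15e-09). ERS1 rose to 49.97 and 48.9 RPKM (1.26, SE 0.05, limma adjusted p = 2.09e-09). ETR2 rose to 7.20 and 6.12 RPKM, 3.00 times the wild type in blue light (1.25, SE 0.09, limma adjusted p = 3.82e-07). ETR1 rose to 18.4 and 17.9 RPKM (0.43, SE 0.07, limma adjusted p = 0.000278). In all 4 genes both mutant libraries lay above both wild-type libraries. How many of all tested genes were separated in this way was not counted, and 67.9% were called. EIN4 had 8.43 and 8.002 RPKM, within the range of the wild type in blue light (0.09, SE 0.10, limma adjusted p = 0.477).

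EBF2 rose to 99.9 and 93.8 RPKM, 3.73 times the wild type in blue light (1.86, SE 0.06, limma adjusted p = 3.39e-10). EBF1 rose to 42.0 and 38.2 RPKM (0.46, SE 0.09, limma adjusted p = 0.000648). EIN3 rose to 146 and 144 RPKM, 2.06 times the wild type in blue light (1.03, SE 0.05, limma adjusted p = 6.31e-09).

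Set against the wild type in darkness, the cry1 cry2 seedlings in blue light differed in genotype and in light at once. By this test 4 of the 8 genes fell, 0 rose and 4 did not pass, where 41.6% of tested genes were called, 16.5% fallen and 25.1% risen. The median of the 8 was -0.16, against 0.06 over all tested genes. With median-ratio scaling 3832 genes rose and 4272 fell in place of 5028 and 3313. ETR2 remained at 37.3% of the dark wild type (-1.30, SE 0.09, limma adjusted p = 1.10e-06), and was the only 1 of the 8 past 1 on the log2 scale, where 1.57% of tested genes fell as far. EBF2 stood at 66.4% (-0.58, SE 0.06, limma adjusted p = 1.95e-05) and ERS1 at 75.2% of the dark wild type (-0.40, SE 0.05, limma adjusted p = 0.000105). EBF1 passed narrowly (-0.26, SE 0.09, limma adjusted p = 0.0345), but had -0.11 and an adjusted p = 0.315 without WT_dark replicate 2, -0.19 and 0.211 without cry1cry2_blue replicate 2, and missed the threshold without either library of the auxin receptor mutant.

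The other 4 genes had levels close to those of the dark wild type. ERS2 stood at 102% of it, with overlapping values (0.03, 95% interval -0.17 to 0.23, limma adjusted p = 0.840), and its sign turned under other settings. EIN3 stood at 98.5% (-0.02, 95% interval -0.13 to 0.08, limma adjusted p = 0.748) and ETR1 at 97.2% (-0.04, 95% interval -0.20 to 0.12, limma adjusted p = 0.694). EIN4 stood at 95.4% (-0.06, 95% interval -0.29 to 0.17, limma adjusted p = 0.673). EIN3 had the narrowest of these 4 intervals.

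**Figure D2:**
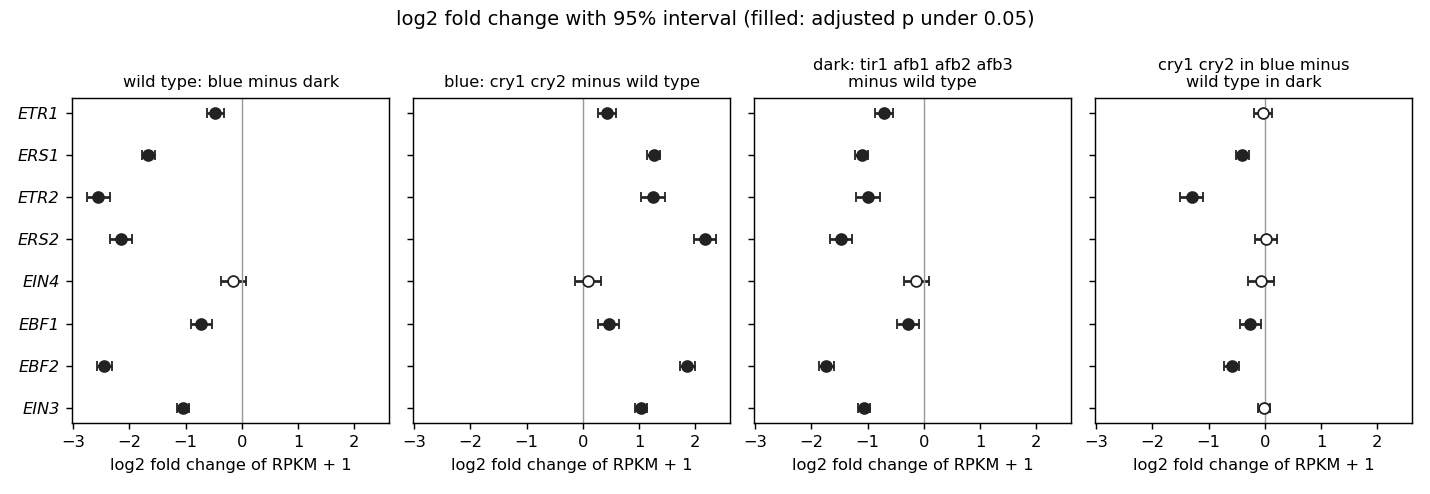
log2 fold change of RPKM + 1 (x axis) with its 95% interval for the 8 genes in the 4 comparisons; filled points have a limma adjusted p under 0.05. The panels for blue light and for the auxin receptor mutant lie left of 0 and that for cry1 cry2 in blue light right of it, with EIN4 open in all 4. Against the dark wild type ETR2 stands farthest from 0, at -1.30.

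The third comparison asked how the auxin receptor mutant differed from the wild type in darkness. Of the 8 genes, 7 fell and EIN4 did not pass, where 78.9% of tested genes were called, 51.4% fallen and 27.5% risen. The median of the 8 was -1.03, against -0.24 over all tested genes. Of the 8, 4 fell by at least 1 on the log2 scale, where 15.9% of tested genes did. Scaling the libraries by median ratios moved the median of all tested genes from -0.24 to 0.01, with 7731 risen and 7483 fallen in place of 5521 and 10295. On that scale 6 of the 8 fell, and EBF1 had 0.02. The 2 dark wild-type libraries were also the reference for blue light and for cry1 cry2 against the dark wild type. Like signs in these comparisons are thus not independent.

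EBF2 had the largest fall, to 44.9 and 41.6 RPKM, 29.6% of the dark wild type (-1.73, SE 0.06, limma adjusted p = 3.80e-10, and -1.43 with median-ratio scaling). ERS2 fell to 6.27 and 5.20 RPKM, 32.5% of the dark wild type (-1.47, SE 0.09, limma adjusted p = 3.30e-08, and -1.20 with that scaling). ERS1 fell to 30.5 and 29.6 RPKM, 45.7% of the dark wild type (-1.10, SE 0.05, limma adjusted p = 3.74e-09, and -0.80 with that scaling). These 3 genes kept both mutant libraries well below both wild-type libraries. The share of all tested genes so separated was not counted, and 78.9% were called.

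ETR2 fell to 8.69 and 8.25 RPKM (-0.99, SE 0.09, limma adjusted p = 1.58e-06, and -0.71 with that scaling). ETR1 fell to 11.8 and 10.4 RPKM, 59.4% of the dark wild type (-0.70, SE 0.07, limma adjusted p = 2.96e-06, and -0.42 with that scaling). Its mean RPKM, without rescaling, was the lowest of the 4 groups. EIN4 had 8.42 and 7.19 RPKM, which overlapped the dark wild type (-0.13, SE 0.10, limma adjusted p = 0.269). Its sign turned with median-ratio scaling, to 0.15, so no direction is given for it.

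EIN3 fell to 71.4 and 68.5 RPKM, 47.5% of the dark wild type (-1.06, SE 0.05, limma adjusted p = 2.83e-09, and -0.76 with median-ratio scaling). EBF1 stood at 39.1 and 39.6 RPKM, 81.4% of the dark wild type (-0.28, SE 0.09, limma adjusted p = 0.0109). That call was lost without WT_dark replicate 2 (-0.13, adjusted p = 0.140), without tir1afb123_dark replicate 1 (-0.27, adjusted p = 0.0521) and with upper-quartile scaling (-0.11, adjusted p = 0.271).

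The order of the 4 groups, read from RPKM without rescaling, differed between the genes. The dark wild type had the highest mean for 7 genes, and cry1 cry2 had it for ERS2. For ETR1, EIN3, EIN4 and ERS2 the difference between these groups did not pass. The wild type in blue light was lowest for ETR2, ERS1, ERS2, EBF1 and EBF2, with no overlap with the next group. Such separation was not counted over all tested genes. For ETR1 the auxin receptor mutant was lowest instead, below the wild type in blue light by 1.19-fold with no overlap, but this pair was not tested. Places of the auxin receptor mutant can depend on the scaling, as median ratios moved its median over all tested genes from -0.24 to 0.01. For EIN3 the auxin receptor mutant and the wild type in blue light overlapped. For EBF1 cry1 cry2 and the auxin receptor mutant overlapped, and for EIN4 each group overlapped its neighbours. ETR2 was the only receptor for which the dark auxin receptor mutant lay above cry1 cry2 in blue light, by 1.27-fold. Over all libraries the highest value was 8.83 times the lowest for ETR2, 5.92 for EBF2, 5.86 for ERS2, 3.35 for ERS1, 2.16 for EIN3, 1.86 for EBF1, 1.80 for ETR1 and 1.28 for EIN4.

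Since RPKM is per length, the 5 receptors can be set against each other as shares of their sum. ERS1 made up 51.1% ± 0.111 (SD, n = 2) of the receptor RPKM in the dark wild type, 43.1% ± 1.58 in blue light, 49.2% ± 0.664 in cry1 cry2 and 47.6% ± 1.73 in the auxin receptor mutant. ETR1 made up 14.5% ± 0.119 in the dark wild type and 28.5% ± 0.603 in blue light, and EIN4 6.70% ± 0.252 and 16.6% ± 2.14. Together these 2 genes held 21.2% ± 0.133 of the sum in darkness and 45.1% ± 1.54 in blue light. They were paired after their small or uncalled change was seen, which by itself gives them a larger share of a falling sum. In cry1 cry2 and the auxin receptor mutant they held 26.3% ± 0.136 and 29.9% ± 1.31.

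ETR2 and ERS2 had nearly equal shares in the dark wild type, 13.9% ± 0.628 and 13.7% ± 0.650, but not elsewhere. In cry1 cry2 ETR2 held 6.62% ± 0.576 and ERS2 17.9% ± 0.224, and in the auxin receptor mutant ETR2 held 13.4% ± 0.265 and ERS2 9.06% ± 0.682. In blue light they held 4.79% ± 0.318 and 6.93% ± 0.275. The receptors without a receiver domain, ERS1 and ERS2, held 64.9% ± 0.761 of the sum in the dark wild type, 50.1% ± 1.86 in blue light, 67.1% ± 0.440 in cry1 cry2 and 56.7% ± 1.05 in the auxin receptor mutant. With 2 libraries a group these shares are descriptions and carry no test.

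**Figure D3:**
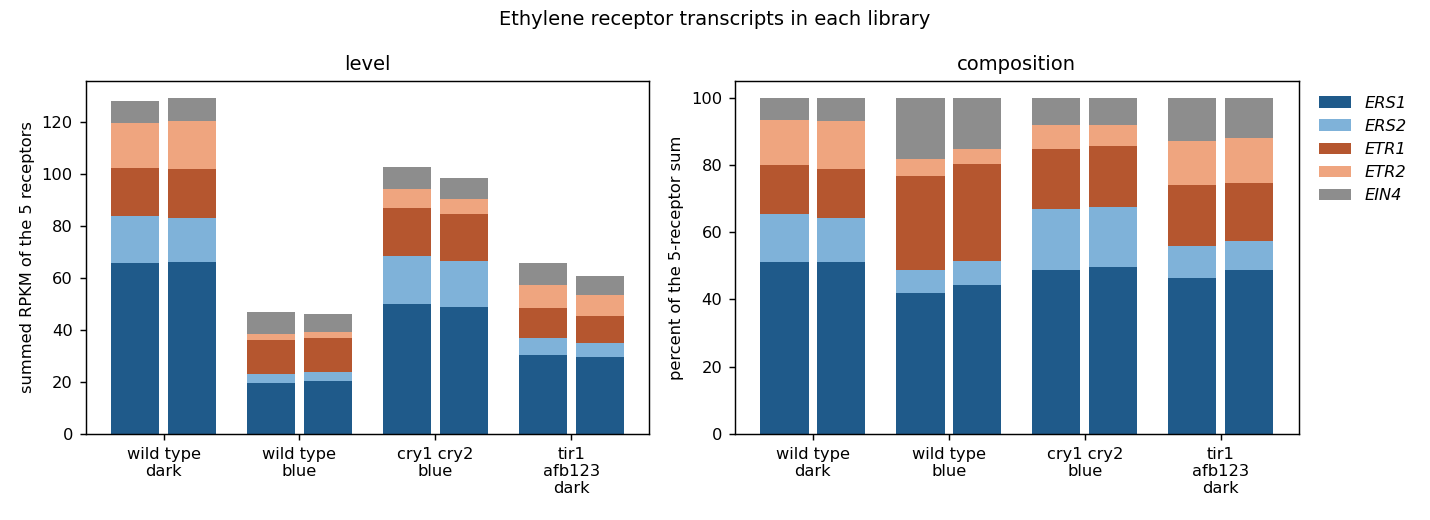
Transcripts of the 5 ethylene receptors in each of the 8 libraries, as summed RPKM (left) and as a percent of that sum (right); the 2 bars of a group are its libraries. The sum is lowest in the wild type in blue light, at 46.8 and 46.0 RPKM. There ETR1 and EIN4 together hold 45.1% on average, their largest share among the 4 groups, and ERS1 alone holds 43.1%.

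Closely related pairs also shifted against each other. EBF2 had 3.04 ± 0.307 times the RPKM of EBF1 in the dark wild type (mean of the library ratios ± SD, n = 2) and 2.42 ± 0.0580 times in cry1 cry2. The ratio was 0.8997 ± 0.0169 in wild-type seedlings from blue light and 1.10 ± 0.0681 in the auxin receptor mutant. EBF1 was thus the more abundant of the pair in the blue-light wild type only. EIN3 exceeded EIL1, its closest relative and partner in ethylene responses, in every library, by 3.52 ± 0.0164 in the dark wild type, 2.16 ± 0.0623 in blue light, 3.12 ± 0.0171 in cry1 cry2 and 2.72 ± 0.164 in the auxin receptor mutant.

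Of 2880 50-base stretches of EBF2 transcripts, 341 were shared with AT5G25340, matched on either strand. Whether the libraries kept the strand was not given, so reads of these stretches cannot be told apart. AT5G25340 had 13.1 and 13.9 RPKM in the dark wild type, 2.33 and 2.47 in blue light, 10.2 and 8.31 in cry1 cry2 and 4.39 and 4.84 in the auxin receptor mutant. EBF2 was 8.58 to 11.3 times as high in every library. The part that reads of the shared stretches had in the values of either gene was not tested. ERS1 shared 7 stretches with AT2G40935 in the same way.

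ERS2 lies 27.7 kb from CRY2, a gene disrupted in cry1 cry2, with 7 measured genes between them. CRY2 and the next genes beyond it, c-NAD-MDH1 and AT1G04420, were at or near 0 in the mutant. Of the 5 genes tested between ERS2 and CRY2, 1 rose, 2 fell and 2 did not pass in cry1 cry2, from -1.53 for AT1G04350 to 0.42 for AT1G04390, next to CRY2. AT1G04300, on the other side of ERS2, rose from 20.1 ± 0.206 to 41.7 ± 2.21 RPKM (1.02, SE 0.06, limma adjusted p = 6.89e-08). In the wild type AT1G04300 stood at 43.1 ± 1.19 RPKM in darkness and ERS2 at 17.6 ± 0.714 RPKM, so that for both the mutant in blue light was close to the dark wild type. The part of the altered region around CRY2 in the rise of ERS2 was not tested.

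**Figure D4:**
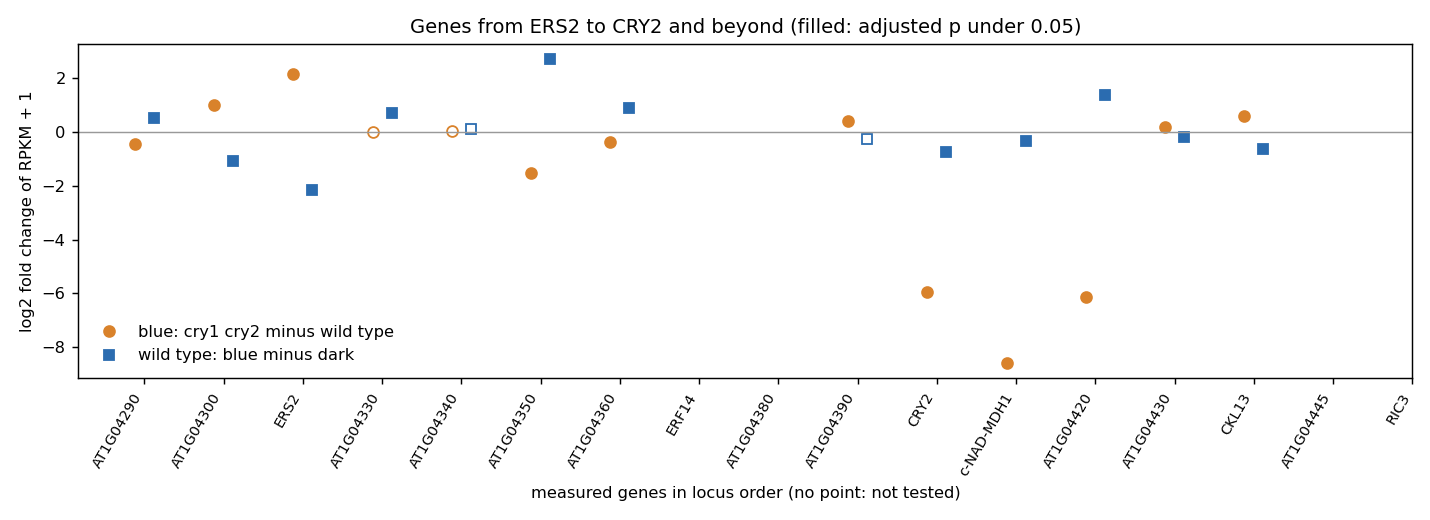
log2 fold change of RPKM + 1 (y axis) for 17 measured genes in locus order from AT1G04290 to RIC3 (x axis), for the cryptochrome mutant over wild type under blue light (circles) and for blue light over darkness in wild type (squares); filled points have an adjusted p under 0.05 and genes below the filter have no point. ERS2 lies at 2.17 and -2.14, while CRY2 and the 2 genes after it lie between -5.93 and -8.58 in the mutant.

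Other genes of the pathway were read from the same fit, and their counts stand against all tested genes, of which 40.4% fell and 34% rose in blue light, 41.6% rose and 26.3% fell in cry1 cry2, and 51.4% fell and 27.5% rose in the auxin receptor mutant. The medians of all tested genes were -0.06, 0.12 and -0.24 in that order. Of 11 genes of ethylene signalling, 10 were tested and EIL2 stayed under the filter. In blue light 8 fell and 0 rose in the wild type, 7 rose and 0 fell in cry1 cry2, and 10 fell in the auxin receptor mutant. Their medians were -0.55, 0.49 and -0.76. In cry1 cry2 against the dark wild type 4 fell and 1 rose, with a median of -0.04. Of all tested genes 16.5% fell and 25.1% rose in that comparison. With upper-quartile scaling 2 rose in blue light. With median-ratio scaling 1 rose in blue light and the auxin receptor mutant had 8 falls, with medians of -0.50 and -0.47. EIN2, which carries the signal onwards from the receptors, fell in blue light from 89.5 ± 4.995 to 32.1 ± 0.103 RPKM (-1.45, SE 0.06, limma adjusted p = 1.88e-09). It rose in cry1 cry2 (1.02, SE 0.06) and fell in the auxin receptor mutant (-1.29, SE 0.06). CTR1, the kinase that the receptors hold active, had -1.09, 0.58 and -0.79 in turn, and all passed. RAN1, the copper transporter that supplies the receptors, had the largest fall of this list in the auxin receptor mutant, from 128 ± 2.00 to 30.9 ± 2.88 RPKM (-2.02, SE 0.06, limma adjusted p = 1.64e-10). EIL1 fell by 0.35 in blue light, rose by 0.50 in cry1 cry2 and fell by 0.68 in the auxin receptor mutant.

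Of 14 ethylene response genes 11 were tested, and ERF1, ESE1 and PDF1.2A were under the filter. In blue light 10 fell and 0 rose, and in cry1 cry2 9 rose and 1 fell. In the auxin receptor mutant 8 fell and 2 rose. Their medians were -2.23, 1.44 and -0.74, and with median-ratio scaling the last was -0.45, with 7 fallen and 3 risen. Against the dark wild type 10 fell in cry1 cry2 and 0 rose, with a median of -0.67, where 16.5% of all tested genes fell. ARGOS, a growth regulator that lowers ethylene sensitivity, went from 61.1 ± 1.10 RPKM in darkness to 4.41 ± 0.577 in blue light (-3.52, SE 0.08, limma adjusted p = 8.62e-12) and to 35.6 ± 1.56 in cry1 cry2. ERF72, an ethylene response factor, went from 918 ± 53.9 to 96.8 ± 7.92 RPKM (-3.23, SE 0.08). EDF3, a target of EIN3, went from 30.8 ± 0.354 to 3.37 ± 0.264 RPKM (-2.87, SE 0.07). In the auxin receptor mutant the hook regulator HLS1 fell to 3.75 ± 0.364 from 20.6 ± 2.67 RPKM (-2.18, SE 0.10), while the response factors ERF2 (2.41, SE 0.15) and ERF5 (2.06, SE 0.11) rose.

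Of 15 ethylene synthesis genes 13 were tested, with ACS4 and ACS9 under the filter. In blue light 10 fell and 0 rose, and in cry1 cry2 10 rose and 0 fell. In the auxin receptor mutant 7 fell and 4 rose, and in this comparison alone the shares were near those of all tested genes (51.4% fallen and 27.5% risen). The medians were -0.77, 0.85 and -0.33. In cry1 cry2 against the dark wild type 6 fell and 2 rose, with a median of -0.11, where 16.5% of all tested genes fell and 25.1% rose. With median-ratio scaling 3 rose in blue light and 1 fell in cry1 cry2, and the auxin receptor mutant had 5 risen and 6 fallen with a median of -0.08. ACO3, an ACC oxidase of the last step of synthesis, fell in blue light from 39.8 ± 1.51 to 2.19 ± 0.0440 RPKM (-3.68, SE 0.07, limma adjusted p = 5.30e-12). In the auxin receptor mutant the ACC synthase ACS6 rose from 9.06 ± 0.0677 to 58.8 ± 6.29 RPKM (2.57, SE 0.09) and ACO1 rose as well (2.03, SE 0.09), while ACS5 fell (-2.33, SE 0.13). Of the 4 core genes of the SCF ubiquitin ligase in which EBF1 and EBF2 work, 4 fell in blue light and in the auxin receptor mutant, and 3 rose in cry1 cry2, with medians of -0.51, -0.62 and 0.44. So few genes, in comparisons where 67.9% to 78.9% of all tested genes were called, show nothing particular to this complex. These counts were the same with median-ratio scaling, and with upper-quartile scaling 3 fell in blue light. The scaffold gene CUL1 changed by -0.84 (SE 0.06) in the auxin receptor mutant.

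**Figure D5:**
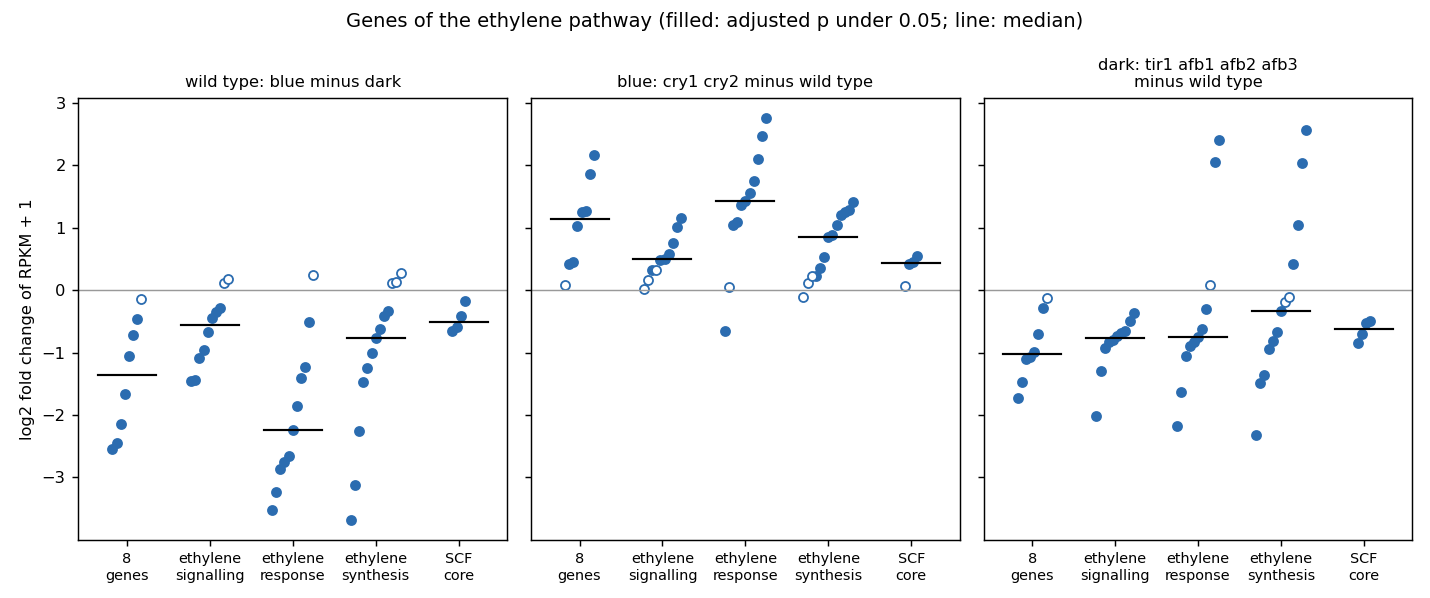
log2 fold change of RPKM + 1 (y axis) of the 8 genes and of the tested genes of 4 lists, each point a gene and each line a median, in 3 comparisons; filled points have an adjusted p under 0.05. The medians lie below 0 for blue light and for the auxin receptor mutant and above 0 for cry1 cry2, and the points above 2 in the auxin receptor mutant are ERF2, ERF5, ACS6 and ACO1.

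Profiles most like each member were sought among 14476 tested genes with a mean of at least 5 RPKM, by the root mean square difference of centred log2 values over the 8 libraries. ERS1 was closest to NAC084 (0.03) and AT1G53690 (0.07), with 132 genes within 0.2. EBF2 was closest to AT4G16670 (0.08) and AT5G10770 (0.09), with 29 genes within 0.2, and ERS2 to AT2G38820 and CASP4 (0.11 each), with 24. ETR2 had only 7 genes within 0.2, the closest being XTH33 and GA3OX1 (0.16 each). The flatter profiles had many: 3327 for ETR1, 2897 for EIN4, 980 for EBF1 and 747 for EIN3. Among the members themselves the closest pair was ERS2 and EBF2 (0.22), followed by EIN4 with EBF1 (0.23) and ERS1 with EIN3 (0.25). The 8 libraries form 4 groups, so these are likenesses over 4 conditions.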

How the data were processed

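Polyadenylated RNA of whole seedlings gave 8 libraries, grouped by their titles. The submitters' processing notes name Bowtie2 2.2.2 and TAIR10; the annotation release and the way reads were assigned are not given in the sources used here. The authors deposited RPKM values, as the file headers state. Reads of the 8 genes were recovered by finding the library total and model length that make them whole to within 0.01 reads. Groups were compared with limma 3.58.1 in R 4.3.3 (trended eBayes, 4 residual and 6.96 prior degrees of freedom) on log2(RPKM + 1) of models that reached 1 RPKM in 2 or more libraries. Both steps were tested on simulated data. A fold or percent between groups is of mean RPKM, without the pseudocount. No label tells whether paired libraries are separate cultures, so p-values measure only the spread between these samples, possibly a technical one. Sequences, positions and coding lengths come from RefSeq TAIR10.1, read with Biopython 1.88, since the deposited files hold no coordinates. Protein identity was planned, and coding bases were compared in its place. The members and lists were chosen with earlier results of these data known. Named genes were the members, CTR1, EIN2 and EIL1, and genes among the 3 largest rises and falls of each list and comparison. The 2 most like profiles of a member were also named, with genes that share stretches with a member and neighbouring genes. Alternatives changed the pseudocount, the filter, the scaling, the samples fitted, the trend, the replicate block and each library in turn.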

Additional observations from a re-analysis of the deposited data

How the results depend on the processing

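Over 18 alternative settings, 558 of 576 recomputed changes of single members kept their direction and their side of the threshold, 10 lost the call and 8 turned sign. The number of the 8 members called stayed at 7 for blue light in the wild type and for cry1 cry2 in blue light under every alternative. It was 6 to 7 in the auxin receptor mutant and 3 to 4 for cry1 cry2 against the dark wild type, and the losses were all of EBF1. Besides the values given with EBF1 above, its call against the dark wild type was lost with no filter on low values (adjusted p = 0.0717), with only the 2 groups compared (0.0818), with no mean-variance trend (0.0763) and without tir1afb123_dark replicate 1 or 2 (0.0518 and 0.0515). Its value in the auxin receptor mutant became 0.0187 with median-of-ratios scaling. EIN4 turned to 0.145 with that scaling and to 0.0265 with upper-quartile scaling in the auxin receptor mutant, and in cry1 cry2 to -0.0246 with median-of-ratios scaling and to -0.0419 without WT_blue replicate 2, the lowest of a leave-one-out range up to 0.216. ERS2 in cry1 cry2 against the dark wild type turned to -0.0416 with median-of-ratios scaling, -0.0125 without WT_dark replicate 2 and -0.0129 without cry1cry2_blue replicate 1, in a leave-one-out range up to 0.066. None of these sign changes was of a call except that of EBF1. The cause was not tested. The replicate block changed no call among the members (7, 7, 7 and 4 called). Replicate 2 minus replicate 1 correlated between groups at -0.115 to 0.137 over genes. With 1 such difference a group, this cannot decide whether equal replicate numbers shared a batch, and the labels do not say. Leaving out a library left 1 in its group, which is then assumed to vary like the other groups.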
